A study of Mus musculus with 6 samples.

Results

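The genes described here are 30 genes of cholesterol and fatty acid synthesis, listed by symbol and followed across 3 groups of E14Tg2a cells, a mouse embryonic stem cell line. Each gene is read from its brightest probe set, judged by the mean of 6 arrays, as the log2 of the deposited intensity. This gave 29 members among 18193 genes with a named probe set. Acat2 was not analysed here. All 3 groups share their culture medium, N2B27, and 2 added factors, LIF (1000 U/ml) and BMP4 (20 ng/ml). Control cells were untreated, with no vehicle stated. Activin was given to another group at 10 ng/ml for 2 h, and SB431542 to the last group at 5 µM for 24 h. Activin, like Nodal, acts through type I receptor kinases that phosphorylate Smad proteins, and SB431542 is a small-molecule inhibitor of these kinases. Each group had 2 arrays, and the labels do not say whether they came from separate cultures, so the tests measure only the spread between these arrays. Dose and time differ between the treatments along with the agent.

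Cholesterol is built from acetyl-CoA through mevalonate, isoprenoid diphosphates and squalene, while fatty acids are built from the same precursor by carboxylation, chain extension and desaturation. Both routes are switched on by the SREBP transcription factors. When membranes lack sterol, the escort protein Scap carries SREBP from the endoplasmic reticulum to the Golgi, where proteases release its active part, and when sterol is plentiful Insig proteins hold the complex back. Growing cells need both products for new membrane.

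On these arrays the members had log2 intensities from 7.60 to 13.30, and all 29 lay above the highest value of 27 probe sets for unspiked bacterial transcripts (5.09) on every array. Of the markers of stem cells 9 of 9 were above that value on every array, as were 8 of 10 of trophectoderm, 5 of 10 of fibroblasts or feeder cells and 2 of 10 of extraembryonic endoderm, so this check alone does not single out stem cells. The treatments were checked on Lefty2, a Nodal-induced antagonist of Nodal, whose log2 intensity was 8.96 and 8.95 in control, 10.40 and 10.29 after activin, and 3.81 and 4.00 after SB431542. Other check genes were Lefty1, Id1 and Id3. Their log2 changes from control were -5.53, 0.60 and 0.48 after SB431542, and 1.42, -0.90 and -1.04 after activin. Lefty1 after activin, and Id1 after either treatment, passed neither test setting given later. Median intensities of the 6 arrays ran from 37 to 49, so the arrays were not on exactly 1 scale. Control replicate 1 was above control replicate 2 in 23 of 29 members and in 68.4% of all genes.

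Regions upstream of 4 members are shown, the 3 members called lower under SB431542 by 1 of the test settings given later (Ebp, Fasn and Idi1) and Hmgcs1, whose probe sets disagreed. Each is the 250 bases before the annotated start, written from 5′ to 3′ on the strand of the gene, from RefSeq on build GRCm38.p6. Capitals mark matches, on either strand, to 4 motifs: TCACNCCAC, a form of the sterol regulatory element bound by SREBP, CCAAT, the site of NF-Y, GGGCGG, the site of Sp1, and CACGTG, an E box. Ebp lies at chrX:8193513-8193762 on the minus strand, Fasn at chr11:120824548-120824797 on the minus strand, Idi1 at chr13:8885356-8885605 on the plus strand and Hmgcs1 at chr13:119690101-119690350 on the plus strand.
Ebp: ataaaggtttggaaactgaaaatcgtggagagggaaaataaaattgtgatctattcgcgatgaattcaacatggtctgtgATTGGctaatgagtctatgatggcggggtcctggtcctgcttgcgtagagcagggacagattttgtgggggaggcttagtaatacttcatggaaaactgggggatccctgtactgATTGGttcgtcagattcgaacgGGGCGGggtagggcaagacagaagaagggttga
Fasn: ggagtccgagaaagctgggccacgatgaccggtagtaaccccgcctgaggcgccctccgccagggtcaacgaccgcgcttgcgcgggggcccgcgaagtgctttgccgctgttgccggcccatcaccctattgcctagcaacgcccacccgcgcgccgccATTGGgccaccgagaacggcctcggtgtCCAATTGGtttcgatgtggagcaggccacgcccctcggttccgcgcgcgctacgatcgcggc
Idi1: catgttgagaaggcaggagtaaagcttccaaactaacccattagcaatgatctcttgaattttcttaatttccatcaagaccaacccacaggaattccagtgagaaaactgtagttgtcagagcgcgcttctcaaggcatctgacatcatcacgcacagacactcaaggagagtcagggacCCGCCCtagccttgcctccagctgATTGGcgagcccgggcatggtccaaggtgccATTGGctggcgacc
Hmgcs1: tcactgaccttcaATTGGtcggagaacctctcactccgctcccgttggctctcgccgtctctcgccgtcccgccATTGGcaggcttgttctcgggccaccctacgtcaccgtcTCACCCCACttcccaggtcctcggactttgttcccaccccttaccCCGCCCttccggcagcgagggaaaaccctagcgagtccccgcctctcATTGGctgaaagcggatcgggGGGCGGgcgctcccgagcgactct

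The Ebp window held 2 CCAAT matches and 1 GGGCGG match, and the Idi1 window held the same numbers. Fasn had 3 CCAAT matches, of which 2 overlap on opposite strands, and 0 GGGCGG matches. Hmgcs1 had 1 match to the sterol element form, 3 to CCAAT and 2 to GGGCGG. Sequence windows were found for 22 of the 29 members, 27 windows in all since some genes have several starts. The CCAAT letters occurred in 70.4% of member windows and in 33.8% of all 32851 windows of that length, and GGGCGG in 70.4% and 32.7%. The sterol element form was in 3.70% of member windows (Hmgcs1 alone) and 1.05% of all windows, and CACGTG in 18.5% and 6.02%. These are counts of letters in a window and say nothing of binding.

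After 24 h of SB431542 the lipid synthesis genes stayed close to control, with a median log2 change of -0.12 against -0.0021 over all genes. Of 29 members, 23 were below and 6 above control, and 19 differed from it by less than 0.2 log2 units. Of all genes 50.5% were below control, and 9588 of 18193 differed by less than 0.2. The lean of the members was smaller over all 47 of their probe sets with a mean over log2 8. Of those, 28 were below and 19 above control, with a median of -0.07. Among the members the 3 deepest values were those of Ebp, Fasn and Fads2, and the 3 highest were those of Scd1, Acly and Sqle. By limma at its default settings 0 of 29 passed an adjusted p of 0.05, where 0.0275% of all genes passed. At an unadjusted p under 0.05 there were 3 members, and 2501 of all 18193 genes. The default test uses 1 prior for the spread of all probe sets. With a prior that follows the level, called the intensity trend here, limma called 3 members lower (Ebp, Fasn and Idi1) and 0 higher, against 2.23% of all genes lower and 4.25% higher. Many of all genes are dimmer than the members. Of the 10655 probe sets with a mean over log2 8, this setting called 3.68% lower and 10.2% higher. Both SB431542 arrays lay below both control arrays in 12 members, where 22.4% of all genes did so, and above both in 3, where 23.9% did.

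The 95% intervals of the default fit were taken on the brightest probe set of each member, 1 member at a time. Changes of other probe sets of a gene can lie outside them, as for Hmgcs1 and Idi1 below. Under SB431542 the intervals ran from -0.84 (Ebp) to 0.60 (Scd1) over the 29 members, so all 29 intervals lay within a 2-fold change either way. Intervals excluded 0 for 3 members before any adjustment for the number of genes, Ebp, Fasn and Fads2.

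**Figure D1:**
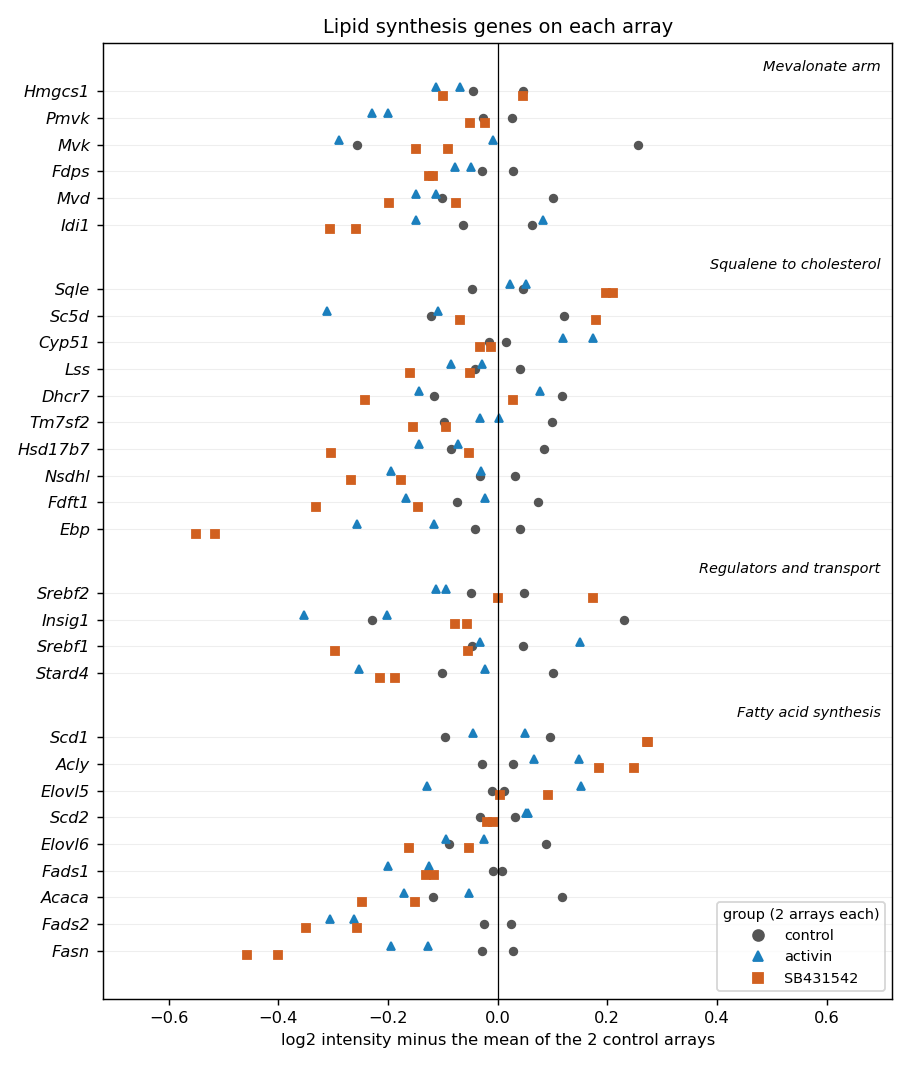
Log2 intensity of each of the 29 members on each array, as the difference from the mean of the 2 control arrays (x axis), with members in 4 role groups (y axis) ordered within a group by their SB431542 change. Grey circles are control, blue triangles activin and orange squares SB431542 arrays. Ebp and Fasn have both SB431542 squares well to the left of both controls, while Mvk and Insig1 show the widest gaps between the 2 control arrays.

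In the mevalonate arm all 6 measured members were below control after SB431542, with a median of -0.12 and changes from -0.28 to -0.03. Idi1, which isomerises isopentenyl diphosphate, had log2 intensities of 11.54 and 11.42 in control, 11.57 and 11.33 after activin, and 11.18 and 11.22 after SB431542. The SB431542 arrays were below all 4 others, and the activin arrays overlapped control. Its change of -0.28 (SE 0.14) did not pass the default test (limma adjusted p = 0.457) and fell under the threshold with the intensity trend (limma adjusted p = 0.0483). That call was lost without control replicate 1 (0.237), SB431542 replicate 1 (0.349) or SB431542 replicate 2 (0.179), and also with columns centred (0.734), with an offset of 16 (0.0521) and with probe sets averaged (0.946). A second Idi1 probe set gave +0.33.

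Fdps, which makes farnesyl diphosphate, was at 12.49 and 12.43 in control, 12.38 and 12.41 after activin, and 12.34 and 12.33 after SB431542, a narrow ordering with a change of -0.12 (SE 0.11). Mvd, the decarboxylase that forms isopentenyl diphosphate, was at 9.24 and 9.03 in control, 9.02 and 8.99 after activin, and 8.94 and 9.06 after SB431542. Its SB431542 arrays straddled the lower control. Mvk, mevalonate kinase, had 8.97 and 8.46 in control, a gap of 0.51 that was wider than any difference between group means, with 8.43 and 8.71 after activin and 8.57 and 8.63 after SB431542. Pmvk, the next kinase, was at 9.29 and 9.24 in control, 9.03 and 9.06 after activin, and 9.21 and 9.24 after SB431542. For Pmvk it was the activin arrays that stood below the rest, at -0.21 (SE 0.11), and neither test passed (limma adjusted p = 0.835, and 0.740 with the intensity trend). Hmgcs1, the synthase that opens the pathway, was at -0.03.

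From squalene to cholesterol, 8 of 10 members were below control after SB431542 and the median was -0.12. Ebp, the sterol isomerase named for binding emopamil, gave the deepest value of the 29. It stood at 10.22 and 10.14 in control, 9.93 and 10.07 after activin, and 9.67 and 9.63 after SB431542. The groups did not overlap, with activin between the others. The change under SB431542 was -0.53 (SE 0.12), 1.45-fold lower, and it passed with the intensity trend (limma adjusted p = 6.94e-04) but not by default (limma adjusted p = 0.244). Over 16 alternatives with the intensity trend the change ran from -0.58 to -0.49 and the adjusted p from 1.42e-05 to 0.203, and 15 of them passed. The exception was centring each log2 column on its own median. Choosing the probe set brightest in control repeats the main fit, as Ebp has 1 named probe set.

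Fdft1, squalene synthase, was at 11.53 and 11.38 in control, 11.43 and 11.29 after activin, and 11.12 and 11.31 after SB431542, a change of -0.24 (SE 0.14). Both SB431542 arrays were below both controls, although a second Fdft1 probe set gave +0.07. Nsdhl, a sterol dehydrogenase, was at 10.35 and 10.29 in control, 10.29 and 10.12 after activin, and 10.05 and 10.14 after SB431542, a change of -0.22 (SE 0.13). Sc5d, the lathosterol desaturase, was at 9.41 and 9.16 in control, 8.97 and 9.18 after activin, and 9.22 and 9.47 after SB431542. Each treatment overlapped control, while both activin arrays lay below both SB431542 arrays. Sqle, squalene epoxidase and a rate-limiting enzyme of this arm, was among the few above control, at +0.20 (SE 0.12). Its 2 SB431542 arrays, at 11.40 and 11.42, lay above all 4 others. The remaining members were Lss, Cyp51, Tm7sf2, Hsd17b7 and Dhcr7, with changes from -0.18 to -0.02.

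The regulators and the sterol transporter Stard4 did not pass either test in any comparison. Srebf1, which encodes the SREBP forms tied mainly to fatty acid synthesis, was at 9.85 and 9.94 in control, 9.86 and 10.04 after activin, and 9.60 and 9.84 after SB431542. Its SB431542 arrays lay below both controls, the second by a small margin, at a mean change of -0.18 (SE 0.15). Srebf2, which encodes the form tied mainly to cholesterol synthesis, was at 9.51 and 9.61, 9.45 and 9.47, and 9.73 and 9.56 in the same order, a change of +0.09 (SE 0.13) with overlap, and the probe set brightest in control gave -0.14. Insig1, the retention factor that is itself an SREBP target, had 8.92 and 8.46 in control, a gap of 0.46, with 8.34 and 8.49 after activin and 8.61 and 8.63 after SB431542. Stard4, which moves cholesterol between membranes, was at 9.37 and 9.17 in control, 9.02 and 9.25 after activin, and 9.08 and 9.06 after SB431542. Both SB431542 arrays were lower than control by this probe set (-0.20, SE 0.15).

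Among the 9 genes of fatty acid synthesis, elongation and desaturation, 6 were below control after SB431542 and 3 above, with changes from -0.43 to 0.27. Fasn, fatty acid synthase, was at 11.37 and 11.31 in control, 11.15 and 11.22 after activin, and 10.89 and 10.94 after SB431542. The 3 groups did not overlap, again with activin in between. Its change of -0.43 (SE 0.12), 1.35-fold lower, passed with the intensity trend (limma adjusted p = 9.14e-04) and not by default (limma adjusted p = 0.283). With the intensity trend its adjusted p ran from 4.04e-05 to 0.427 over 16 alternatives, 15 of which passed, and centring each log2 column gave the highest value.

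Of the enzymes that supply Fasn, neither passed either test. Acly, which makes cytosolic acetyl-CoA, was at +0.22 (SE 0.12), and Acaca, which makes malonyl-CoA, was at -0.20 (SE 0.14). Scd1, a stearoyl-CoA desaturase, was at 10.38 and 10.19 in control, 10.34 and 10.24 after activin, and 10.56 on both arrays after SB431542. It was the highest of the 29, at +0.27 (SE 0.13), and its SB431542 arrays lay above all others without passing (limma adjusted p = 0.107 with the intensity trend). Without control replicate 1 it did pass, at +0.37 (limma adjusted p = 0.0298 with the intensity trend). Fads2, the delta-6 desaturase of polyunsaturated fatty acids, was at 9.89 and 9.84 in control, 9.60 and 9.56 after activin, and 9.52 and 9.61 after SB431542. Both treatments stood below both controls, at -0.28 (SE 0.12) for activin and -0.30 (SE 0.12) for SB431542, with the control arrays shared. Neither passed (limma adjusted p = 0.475 and 0.0994 with the intensity trend). A second Fads2 probe set gave +0.07 after SB431542. Fads1, the delta-5 desaturase, was at 8.96 and 8.94, 8.82 and 8.75, and 8.83 and 8.82, also with both treatments below control. Scd2, Elovl5 and Elovl6 lay between -0.11 and 0.05.

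**Figure D2:**
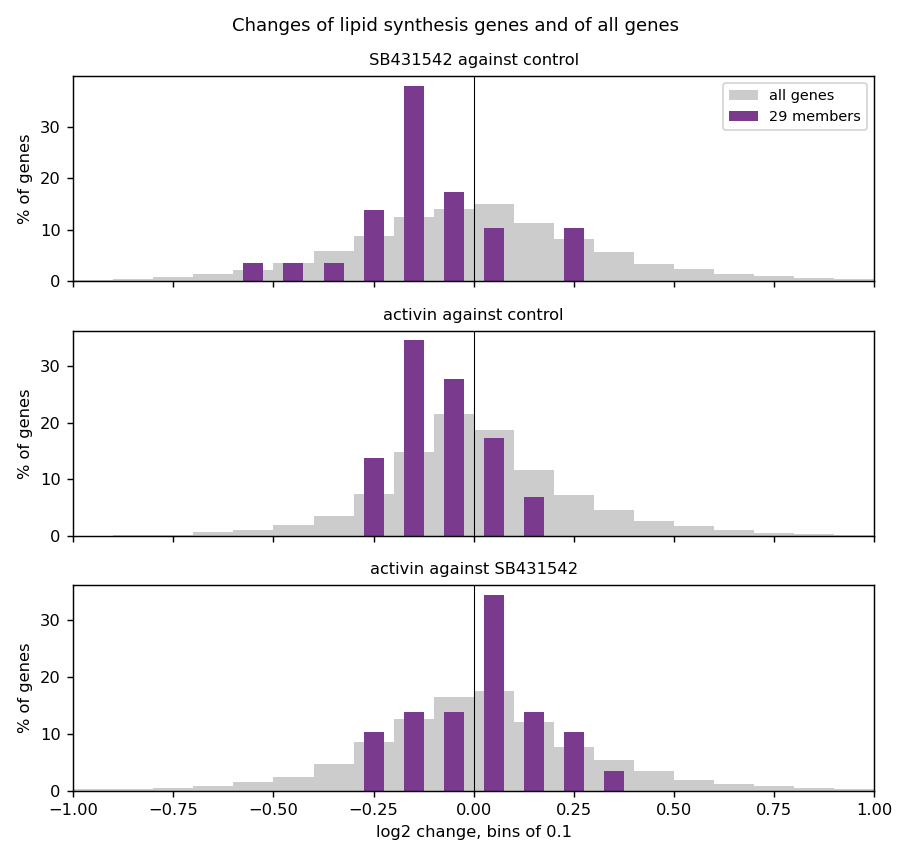
Share of genes (y axis, percent) in bins of 0.1 of the log2 change (x axis) for the 29 members (narrow purple bars) and for all 18193 genes (wide grey bars), in 3 comparisons. The members lie between -0.53 and 0.35 over the 3 panels, and their median is -0.12 for SB431542 against control, -0.10 for activin against control and 0.05 for activin against SB431542.

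Some markers of other cells moved with SB431542 as well. The summed intensity of 10 trophectoderm markers was 11585 to 13358 in control, 10874 to 11147 after activin and 17370 to 17527 after SB431542, with Elf5 under the bacterial probe sets on every array. Krt8 and Krt18 made up 77.5% to 83.2% of that sum, and the other 8 summed to 2246 to 2395, 2163 to 2448 and 3546 to 3927. With the intensity trend 6 of the 10 were higher after SB431542 and 1 was lower, Eomes, at -2.32 (SE 0.14). That of 10 fibroblast or feeder markers was 3815 to 3952, 3626 to 3791 and 2553 to 2723, with Col3a1 under that value. Vim alone made up 84.7% to 89.5% of this sum, the other 9 summed to 399 to 460, 487 to 553 and 323 to 325, and the 2 markers called lower were Vim and Col1a1. That of 9 stem cell markers was 36617 to 38616, 38273 to 38889 and 34362 to 34542, with 4 called lower and 1 higher. Extraembryonic endoderm, a lipid-exporting tissue, summed to 451 to 528, 449 to 637 and 457 to 491 over 10 markers. Of these, 0 were called higher and 0 lower after SB431542, and Afp and Apob were under the bacterial value on every array. In the same setting 4.25% of all genes were called higher and 2.23% lower. The part of these shifts in the changes of Ebp, Fasn and Idi1 was not tested. In RNA from whole cultures, fewer cells of a type and less RNA per cell cannot be told apart.

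After 2 h of activin the members' median log2 change was -0.10 against -0.0063 over all genes. Of the members 22 were below control and 7 above, and 25 of 29 differed by less than 0.2. Of all genes 51.5% were below control, and 12134 of 18193 differed by less than 0.2. Of the 47 member probe sets with a mean over log2 8, 30 were below and 17 above control, with a median of -0.03. By limma 0 members passed by default, as did 0% of all genes. At an unadjusted p under 0.05 there were 0 members, and 954 of all 18193 genes. With the intensity trend 0 members passed too, where 0.137% of all genes were called higher and 0.011% lower. Both activin arrays lay below both controls in 9 members (15.2% of all genes) and above in 3 (14.9%). The 95% intervals ran from -0.74 (Insig1) to 0.43 (Cyp51), within a 2-fold change for all 29. In the mevalonate arm all 6 members were below control by their brightest probe sets, with -0.21 for Pmvk the lowest. The largest differences elsewhere were those of Fads2 (-0.28), Insig1 (-0.28), Sc5d (-0.21) and Ebp (-0.19). Without control replicate 1 the median was -0.03.

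Set directly against each other, the treatments share no control array. The median member was 0.05 higher after activin than after SB431542, with 18 of 29 higher, and the sign of that median turned to -0.03 without SB431542 replicate 1. Of all 18193 genes 9174 were higher after activin, as were 24 of the 47 member probe sets with a mean over log2 8. By limma 0 of 29 members passed by default, where 0.033% of all genes did. At an unadjusted p under 0.05 there was 1 member, and 1878 of all 18193 genes. With the intensity trend 0 members passed as well, against 1.26% of all genes higher after activin and 2.12% lower. Activin arrays lay above both SB431542 arrays in 8 members (19.7% of all genes) and below both in 7 (22.8%). Ebp was nearest the threshold, with +0.35 (SE 0.12), and limma gave an adjusted p of 0.0688 under the intensity trend. Fasn followed with +0.27 (SE 0.12) and a limma adjusted p of 0.0992. Leaving out either control array brought both past it with the intensity trend. Without activin replicate 2 Idi1 passed instead, at +0.37 (limma adjusted p = 0.0380). The 95% intervals ran from -0.68 (Sc5d) to 0.66 (Ebp). In the other direction stood Scd1 (-0.27), Sc5d (-0.27) and Insig1 (-0.21).

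Different probe sets of a member did not always give the same sign, which limits what the highest one can say of the gene. Of the 29 members, 14 had more than 1 probe set with a mean over log2 8, and in 9 of these the SB431542 changes were of mixed sign. Hmgcs1 was the clearest case. Its brightest probe set gave -0.03, while others rose by 0.42 (SE 0.14) and 0.34 (SE 0.13), for which limma under the intensity trend gave adjusted p-values of 5.93e-04 and 0.0163. The first of those 2 read 11.86 and 12.03 in control, 12.14 and 12.30 after activin, and 12.46 and 12.27 after SB431542. There both treatments lay above both controls, and the activin and SB431542 arrays overlapped.

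Stard4 was at -0.20 by its brightest probe set and at +0.41 and +0.26 by others, none of which passed. Idi1 was at -0.28 and +0.33. Acly gave +0.22, +0.20 and -0.21. For Scd2 the brightest probe set was at -0.01, while a second fell by 0.33 (limma adjusted p = 0.0049 under the intensity trend), from 12.02 and 12.03 in control to 11.72 and 11.68. Scd1 was the same way by both, and its second probe set rose by 0.38 (limma adjusted p = 0.0474 with the intensity trend). Of the 47 member probe sets over log2 8, the intensity trend called 4 lower and 3 higher, against 3.68% lower and 10.2% higher of all 10655 probe sets over that level. Ebp and Fasn have only 1 named probe set each, so their decreases rest on 1 measurement per array. For both, the setting with the probe set brightest in control repeats the main fit. With a gene's probe sets averaged, Ebp and Fasn were the 2 members called and Idi1 was at +0.02.

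**Figure D3:**
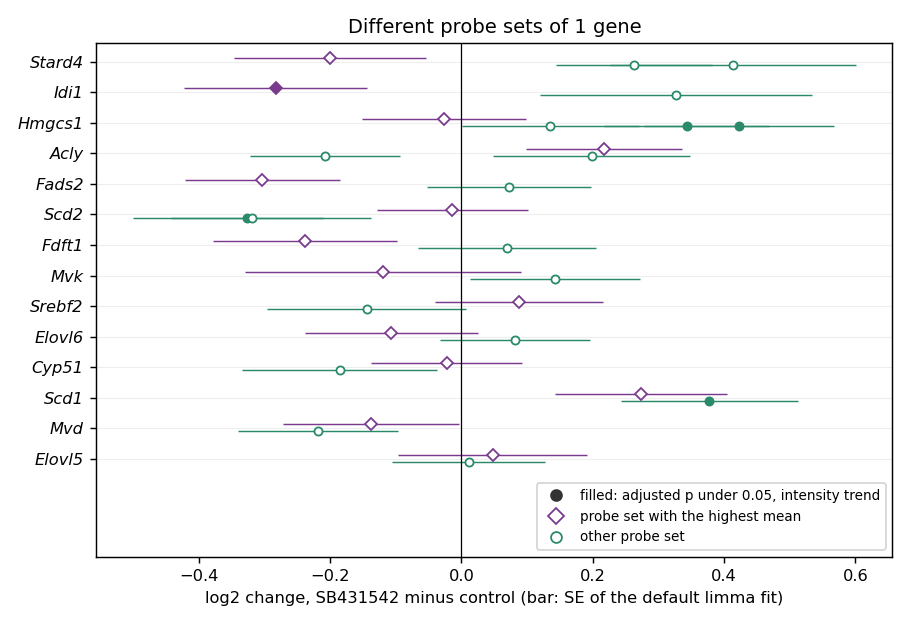
Log2 change after SB431542 (x axis) for each probe set with a mean over log2 8 of the 14 members that have several (y axis), with bars for the SE of the default fit. Purple diamonds are the probe set with the highest mean and green circles the others, filled where the intensity trend gave an adjusted p under 0.05. Stard4, Idi1 and Hmgcs1 at the top have probe sets on both sides of 0.

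A further 41 genes of lipid uptake, SREBP processing, sterol export, elongation and fatty acid use give the surroundings of the members, and 34 were measured. By default 0 passed in any comparison, with 10 at an unadjusted p under 0.05 for SB431542 against control, 0 for activin against control and 7 between the treatments. With the intensity trend 4 rose and 1 fell after SB431542, 0 changed after activin, and 1 was higher and 2 were lower after activin than after SB431542. With each gene's probe set chosen on the control arrays alone, 3 rose and 1 fell after SB431542, since Rdh11 was not called. The shares of all genes, also those at an unadjusted p under 0.05, are those given above. The median of these pathway genes was 0.08 under SB431542, and 22 of 34 were above control, as were 8961 of all 18193 genes.

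Cpt1a, which admits fatty acids to mitochondria for oxidation, was at 8.89 and 8.71 in control, 8.74 and 8.86 after activin, and 8.11 and 7.95 after SB431542. It fell by 0.77 (SE 0.14; limma under the intensity trend, adjusted p = 1.57e-04), with activin level with control. A dimmer Cpt1a probe set gave +0.34 and did not pass. Rdh11, a retinal reductase and known SREBP target, was at 8.43 and 8.58 in control, 8.65 and 8.66 after activin, and 9.32 and 9.12 after SB431542, and rose by 0.71 (SE 0.14, limma adjusted p = 2.33e-04). This probe set is the brighter of 2 only through its SB431542 arrays. The other, at 8.64 and 8.71 in control, is the brighter there and gave +0.08 without passing, so the call rests on how the probe set was chosen. Acsl4, which activates arachidonic acid, rose by 0.61 (SE 0.16, limma adjusted p = 7.67e-04), from 9.04 and 9.22 to 9.77 and 9.71. Dimmer Acsl4 probe sets gave +0.23 and +0.18 and did not pass.

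Mbtps2, the site-2 protease that completes SREBP release, rose by 0.44 (SE 0.12, limma adjusted p = 0.0089), from 9.35 and 9.36 in control to 9.85 and 9.75. Activin arrays, at 9.45 and 9.55, lay in between. Elovl1, which extends very long saturated chains, rose by 0.40 (SE 0.16, limma adjusted p = 0.0384), and 2 further probe sets also gave +0.40 and +0.41 without passing. Between the treatments Cpt1a was higher after activin by 0.77, and Elovl1 (-0.54) and this Rdh11 probe set (-0.56) were lower, all 3 past the threshold with the intensity trend. Elovl7, an elongase of long chains, had the widest change of the 34 after SB431542 by the brightest probe sets, +0.85 (SE 0.19), and Fads3 was at +0.71 (SE 0.17), and neither passed. Insig2, which like Insig1 retains the SREBP complex, was at +0.06 by its brightest probe set. A dimmer Insig2 probe set, singled out after its values were seen, was at 6.30 and 6.25 in control, 6.64 and 6.78 after activin, and 7.40 and 7.30 after SB431542. The 3 groups did not overlap there, and it rose by 1.08 (SE 0.13; limma under the intensity trend, adjusted p = 0.0011). The widest after activin were those of Mylip (-0.41), which degrades the LDL receptor, Elovl2 (+0.34) and Elovl3 (-0.32), and the last 2 lie near the bacterial level.

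**Figure D4:**
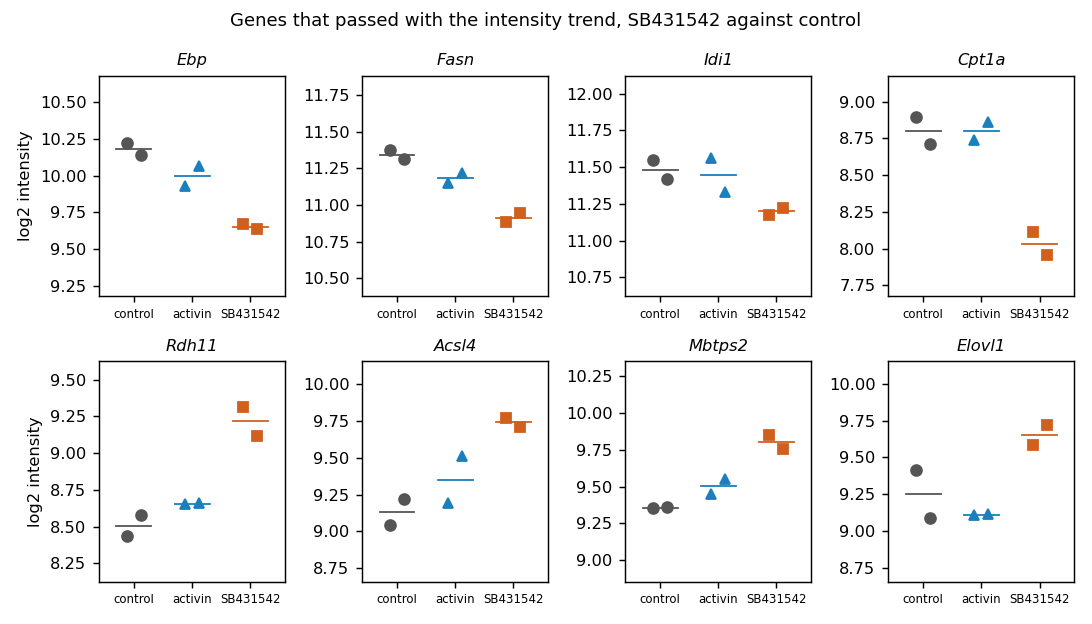
Log2 intensity (y axis, each panel spanning 1.5 units) on each array for the 3 members and 5 other pathway genes called in SB431542 against control with the intensity trend. Points are arrays and lines are the means of the 2 arrays of a group. In Ebp, Fasn, Idi1 and Cpt1a both SB431542 arrays lie below all others, while in Rdh11, Acsl4, Mbtps2 and Elovl1 they lie above.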

How the data were processed

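RNA from 6 single-colour Affymetrix mouse arrays, 2 per group, was analysed. The authors deposited 1 linear intensity per probe set and array, in whole numbers from 6 to 26405, and RMA (background correction, quantile normalization and summary) is named without a version in the submitters' processing notes. Rounding makes steps of dim values coarse. Intensities were converted to log2 with no further normalization. The 64 control probe sets were left out, and the other 45037 entered a single limma fit of all 3 groups (limma 3.58.1 under R 4.3.3). Default eBayes had 3 residual and 2.51 prior degrees of freedom, with Benjamini-Hochberg adjustment over all of them and a threshold of 0.05. The intensity trend sets trend and robust estimation in eBayes. Shares of all genes use the brightest probe set of each of 18193 genes. The fit was tested on simulated data with changes larger than those of any member, so that test does not cover changes as small as theirs. Gene symbols come from the platform annotation, and promoter sequences from RefSeq. The labels spell the inhibitor SB432542 in 1 title and in 1 condition field, and SB431542 elsewhere.

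The members and lists were chosen with earlier results of these data known. Named with every array's value were members called by either setting and, in each of 4 role groups, the 3 largest changes after SB431542 and the 2 largest after activin. Of the other pathway genes, those called and the 3 largest changes of each comparison were named. Other values were added after they were seen. The intensity trend combined with other settings, the crossed pairing, and the choice of probe sets on the control arrays were added after seeing the data. Of 41 other pathway genes, 7 were not analysed here. The number of arrays limits precision.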

Additional observations from a re-analysis of the deposited data

How the results depend on the processing

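The default test called 0 members in every comparison under each of its alternatives other than the intensity trend, which called 3 members and 5 other pathway genes in SB431542 against control and 3 other pathway genes between the treatments. In activin against control 0 of either list passed under any setting. With the intensity trend and SB431542 against control, repeated quantile normalization called 5 members (Fdft1 and Fads2 in addition) and centring each log2 column called 0, and leaving out arrays gave 2 to 3. The other pathway genes called there were 9 with columns shifted to 1 median, 1 with columns centred, 8 with the dimmest 40% left out, 8 with 2 groups only and 1 with probe sets averaged (Mbtps2), and 3 to 7 when arrays were left out. The 3 came without SB431542 replicate 1 or without replicate 2. Between the treatments, 2 members passed with repeated quantile normalization, 2 with columns shifted, 1 with the dimmest 40% left out and 2 with 2 groups only, and 0 to 2 when arrays were left out. The other pathway genes passing there were 5 with columns shifted, 0 with columns centred, 5 with the dimmest 40% left out, 5 with 2 groups only and 0 with probe sets averaged, and 1 to 5 when arrays were left out, the 1 without activin replicate 1. The shares of all genes called under each alternative, here and below, are not given. Without them these counts cannot be read as results about the members or the other pathway genes. The causes were not tested.

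The members' median in SB431542 against control ran from -0.15 to -0.0372 when arrays were left out (-0.0372 without control replicate 1, -0.05 without SB431542 replicate 1). In activin against control it was -0.16 with columns centred and -0.15 to -0.0293 when arrays were left out, and between the treatments -0.0272 to 0.0613. Averaging all probe sets of a gene turned the sign for Idi1 (0.0221), Fdft1 (0.186), Srebf2 (-0.0285) and Stard4 (0.159) in SB431542 against control, and for Sc5d (0.0155) and Stard4 (0.0147) in activin against control, where the average includes probe sets of the other sign. With the probe set brightest in the control arrays Srebf2 turned to -0.14 in SB431542 against control. Mvk after activin ran from -0.40 to 0.107 when arrays were left out, the latter without control replicate 1. Of 759 values of named members under alternatives, 718 kept their sign and side of the threshold. Some alternatives leave a change as it was by construction, such as leaving out an array of the third group.

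No pairing of the arrays by the numbers in the titles was seen, with correlations of same-numbered deviations over genes of -0.14, 0.03 and -0.12. Such correlations do not show that the arrays were unpaired. With the replicate block the default test called 0 members and the intensity trend 3 in SB431542 against control, as without it. With the activin numbers crossed the trend called 3 members and 8 other pathway genes there.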
